A study of Homo sapiens with 4 samples.

Results

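The 7 genes described here encode growth factors that bind receptors of the ErbB family: AREG (amphiregulin), EREG (epiregulin), HBEGF (heparin-binding EGF-like growth factor), TGFA (transforming growth factor alpha), BTC (betacellulin), EGF (epidermal growth factor) and NRG1 (neuregulin 1). They were chosen by symbol from the 61471 gene names of each count table, and all 7 were found and passed the filter on low counts, among 16413 genes tested. RNA of MDA-MB-231 cells, an established human line of triple-negative breast cancer, had been sequenced in 4 libraries. EGFP negative cells (2 libraries) are labelled with increased extravasation, in which tumour cells leave a blood vessel, and EGFP positive cells (2 libraries) without it. Both groups are labelled as genotype WT and as transfected with H2B-EGFP, a histone fused to a green fluorescent protein, and with CMV-RFP, a red fluorescent protein under a viral promoter. Both grew in DMEM with fetal bovine serum, which itself carries growth factors. The series title concerns polyploidy and adhesion to the matrix, but the labels used here give the ploidy of neither group. EGFP status and extravasation status changed together and cannot be told apart. The labels name no separate cultures behind the libraries, so the p-values rest on a spread between libraries that may be technical.

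ErbB ligands are made as precursors anchored in the plasma membrane, and most are cut free at the cell surface by metalloproteases such as ADAM17 and ADAM10. The soluble ligand then binds EGFR, as AREG, TGFA and EGF do, or EGFR and ERBB4, as HBEGF, EREG and BTC do. NRG1 differs from the rest in that it binds ERBB3 and ERBB4 and not EGFR. Receptor dimers signal through RAS and the MAP kinases, which in turn raise transcription of several ligand genes and of feedback inhibitors. MDA-MB-231 cells belong to the basal, mesenchymal-like lines, in which EGFR is known to be abundant.

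Library totals were 11445076 to 12635576 counts. Levels are in CPM, each count scaled to the size of its library, on which 3 counts were worth 0.241 to 0.260 CPM. Differences in level between genes are given per length, as CPM per kb of annotated exon, unless CPM or counts are named. Of the markers of the line, VIM, CD44, KRT18 and EGFR passed the filter on low counts. VIM was higher (log2 fold change 0.47, adjusted p = 2.0e-04) and CD44 and EGFR lower in EGFP negative cells. Of the receptor genes behind the name triple-negative, the hormone receptor genes ESR1 and PGR had at most 3 counts in every library. ERBB2 passed the filter, at 97.1 CPM in EGFP negative cells and 81.1 CPM in EGFP positive cells. Leukocyte markers summed to 1.93 to 2.23 CPM in EGFP negative libraries and 0.608 to 1.21 CPM in EGFP positive ones, with CD3E at 0 in all libraries. Endothelial markers summed to 11.8 to 13.9 and 14.2 to 14.4 CPM, with CDH5 at 0, fibroblast markers to 4.88 to 6.35 and 2.17 to 3.98 CPM, with DCN at 0, and luminal epithelial markers to 16.5 to 17.3 and 24.2 to 24.7 CPM, EGFP negative libraries first in each pair. Among those lists PECAM1 (39 and 43 counts in EGFP negative and 9 and 9 in EGFP positive libraries) and PDGFRB (73 and 52, and 37 and 21) were higher and EPCAM (85 and 80, and 153 and 148) lower in EGFP negative cells. KDR, the more abundant endothelial marker, had 131 and 94 counts in EGFP negative and 152 and 153 in EGFP positive libraries and was not called (adjusted p = 0.067). The part of these markers in the results below was not tested.

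Ligand transcripts changed in both directions in EGFP negative cells. AREG fell 2.23-fold, while TGFA rose 1.63-fold, EREG 1.79-fold and EGF 2.47-fold. HBEGF, NRG1 and BTC did not pass the test. In all, 3 of the 7 were higher and 1 was lower, 57.1% of the ligands against 18.9% of all tested genes. The test was edgeR's quasi-likelihood test, two-sided, with Benjamini-Hochberg adjustment over all genes. The ligands and the lists of partner genes below were chosen with earlier results of these data known. Their shares called are therefore descriptions and not a test. The background was 1543 genes higher (9.40%) and 1552 lower (9.46%). The median log2 fold change, EGFP negative over EGFP positive, was 0.71 over the 7 ligands and -0.0028 over all genes. With bulk RNA, fewer cells that express a gene and less RNA per cell cannot be told apart. Without EGFP positive library 1 the log2 fold changes were 0.66 for EREG and 0.77 for EGF. By DESeq2 the calls of EREG and EGF were lost (adjusted p = 0.074 and 0.093), which left 1 higher and 1 lower ligand. A fit with 1 library left out takes its spread from the pair of the other group alone. The pairs differed in spread (chi-square per degree of freedom 6.71 in EGFP negative and 2.14 in EGFP positive libraries). The number of genes called in such fits followed the group that lost a library. A call lost or gained there does not show dependence on that library, so for a single such fit only fold changes are given for named genes. Ranges of adjusted p over all alternative fits include such fits.

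The promoter windows of the 4 called ligands are shown, among them those of AREG and EREG, neighbours that moved in opposite directions. They run from 250 bases before to 50 bases after the annotated start, as RefSeq gives them on GRCh38.p14, and windows were found for 6 of the 7 ligands. They are AREG at chr4:74444886-74445185 (+ strand), EREG at chr4:74364895-74365194 (+), TGFA at chr2:70553777-70554076 (- strand, the first of 2 windows listed) and EGF at chr4:109912633-109912932 (+). Capitals mark the letters searched on both strands: TGANTCA, a site of AP-1 factors; TGACGTCA, the cyclic AMP response element; GGAATG, a site of TEAD factors; and GGGCGG, a GC box.
AREG: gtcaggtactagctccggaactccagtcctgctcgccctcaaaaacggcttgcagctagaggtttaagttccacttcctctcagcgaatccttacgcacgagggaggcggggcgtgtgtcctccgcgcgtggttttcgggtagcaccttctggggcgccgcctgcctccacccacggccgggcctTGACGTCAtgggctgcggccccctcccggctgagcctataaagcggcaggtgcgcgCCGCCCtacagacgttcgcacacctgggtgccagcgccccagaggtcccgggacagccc
EREG: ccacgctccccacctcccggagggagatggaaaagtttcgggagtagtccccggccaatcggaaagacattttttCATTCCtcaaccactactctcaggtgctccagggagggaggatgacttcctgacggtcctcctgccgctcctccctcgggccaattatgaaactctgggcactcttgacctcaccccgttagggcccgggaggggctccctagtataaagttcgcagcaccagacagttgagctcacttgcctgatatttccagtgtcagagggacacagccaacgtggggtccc
TGFA: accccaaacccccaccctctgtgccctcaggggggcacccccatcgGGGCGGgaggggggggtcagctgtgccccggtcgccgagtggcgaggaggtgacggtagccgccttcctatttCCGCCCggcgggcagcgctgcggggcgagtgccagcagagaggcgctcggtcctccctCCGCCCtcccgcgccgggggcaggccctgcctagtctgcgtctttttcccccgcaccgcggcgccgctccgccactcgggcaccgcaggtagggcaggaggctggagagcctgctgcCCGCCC
EGF: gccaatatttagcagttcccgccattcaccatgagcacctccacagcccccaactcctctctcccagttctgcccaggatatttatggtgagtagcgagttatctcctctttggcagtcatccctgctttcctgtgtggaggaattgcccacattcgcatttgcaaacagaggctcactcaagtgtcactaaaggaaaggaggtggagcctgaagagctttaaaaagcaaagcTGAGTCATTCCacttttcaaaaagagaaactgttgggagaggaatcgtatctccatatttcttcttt

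The AREG window held TGACGTCA from 65 to 58 bases before the start, letters found in 1.85% of the 35116 RefSeq windows of this length, and a GC box. The EREG window held CATTCC, which is GGAATG on the other strand, from 175 to 170 bases before the start, and none of the other letters. GGAATG on either strand occurred in 14.0% of all windows. The EGF window held TGAGTCA from 17 to 11 bases before the start and a CATTCC that overlaps it by the letters CA. TGANTCA occurred in 7.71% of all windows. The TGFA window held only GC boxes, 4 of them, and the second TGFA window none of the letters. The windows of HBEGF and BTC also held only GC boxes, 5 in HBEGF, of which a pair overlap, and 1 in BTC, and GGGCGG occurred in 45.0% of windows. These matches describe the letters of the windows and do not show binding.

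Amphiregulin was the ligand with the smallest adjusted p and the only one called lower with all 4 libraries. AREG (GRCh38 chromosome 4, 74445136 to 74455005, + strand) had 155 and 144 counts in EGFP negative libraries and 321 and 316 in EGFP positive libraries. This amounts to 12.4 ± 0.0788 CPM in EGFP negative cells and 27.6 ± 0.241 CPM in EGFP positive cells (SD, n = 2 each). GRCh37, a build named in the submitters' notes, carried a near-identical second copy of AREG. Reads placed by that build could have been lost or split, but would mostly miss the GRCh38 exons on which AREG was counted. The build used for alignment was not tested. Both EGFP negative libraries lay below both EGFP positive ones by far more than either pair differed. Sampling noise at such counts exceeds these SDs, so they understate the uncertainty, and the SE of the fit is the better guide. The log2 fold change was -1.15 ± 0.14 (SE; adjusted p = 4.5e-05), and AREG ranked 267 of the 16413 genes by p. Over the 11 alternative fits it kept its direction and its call, with log2 fold changes of -1.16 to -1.14 and adjusted p of 4.0e-15 to 8.8e-05.

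The protein-coding genes whose levels followed AREG most closely over the 4 libraries were NEDD4L, DYSF and PAWR. Likeness was the Euclidean distance of log2 CPM (plus 0.5) centred on the mean of each gene, among 10214 candidates with at least 5 CPM. The distances were 0.0405, 0.0432 and 0.0436. NEDD4L, a ubiquitin ligase gene, was at 159 CPM in EGFP negative cells and 351 CPM in EGFP positive cells. DYSF (dysferlin) was at 33.7 and 75.1 CPM and PAWR at 94.2 and 207 CPM, EGFP negative cells first. With 4 libraries the measure ranks genes by little more than the size of their difference between groups.

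Epiregulin moved against its neighbour. EREG (chromosome 4, 74365145 to 74388749, + strand) ends 56387 bp before AREG starts, on the same strand. It had 100 and 95 counts in EGFP negative libraries and 45 and 59 in EGFP positive libraries, or 8.09 ± 0.0762 CPM and 4.51 ± 0.868 CPM (SD, n = 2 each). The groups did not overlap, and the EGFP positive libraries differed more from each other than the EGFP negative ones did. Whether that contrast exceeds sampling noise at such counts was not tested, and the SE of the fit is the better guide. The log2 fold change was 0.84 ± 0.23 (SE, adjusted p = 0.018), and it was 0.66 without EGFP positive library 1. Per length, AREG exceeded EREG 5.80-fold and 5.67-fold in EGFP negative libraries, against 26.7-fold and 20.03-fold in EGFP positive libraries.

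Betacellulin lies on the other side of AREG. BTC (chromosome 4, 74744759 to 74794523, - strand) begins 289754 bp after AREG ends, with its own start at the far end. Its counts were low, 18 and 21 in EGFP negative libraries and 11 and 7 in EGFP positive libraries. That is 1.62 ± 0.250 CPM and 0.780 ± 0.243 CPM (SD, n = 2 each). The groups did not overlap, but the log2 fold change of 1.04 ± 0.46 (SE) did not pass (adjusted p = 0.14; 0.084 to 0.61 over 10 alternative fits). Without EGFP positive library 1 it was 1.40, and without EGFP positive library 2 it was 0.76.

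The remaining genes of this stretch were described from 500 kb before EPGN, the epigen gene, to 500 kb after BTC. Of 36 gene names there, 8 were tested, of which EREG and AREG were called, 25% against 18.9% of all genes. EPGN, an EGFR ligand gene between MTHFD2L and EREG, had 0 and 1 counts in EGFP negative libraries and 0 and 0 in EGFP positive libraries. The chemokine genes CXCL1 and CXCL2 had log2 fold changes of -0.47 (adjusted p = 0.50) and -0.77 (adjusted p = 0.30), both at under 2 CPM. MTHFD2L, a mitochondrial folate enzyme gene, was at -0.68 (adjusted p = 0.15), PARM1 at -0.23 (adjusted p = 0.62) and the locus listed as ENSG00000251017 at 0.28 (adjusted p = 0.47). Over chromosome 4 as a whole, 55 genes were higher (8.38%) and 118 lower (18.0%) of 656 tested, against 9.40% and 9.46% of all genes, with a median log2 fold change of -0.10.

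**Figure D1:**
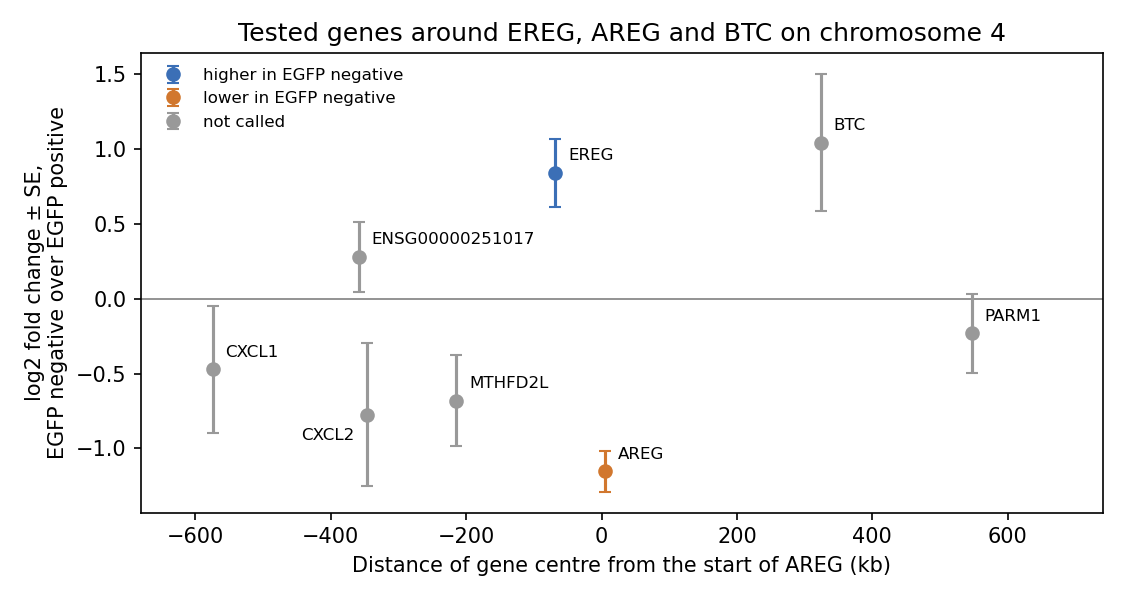
Log2 fold change of EGFP negative over EGFP positive (y axis, bars are SE) of the 8 tested genes against the distance of the gene centre from the start of AREG in kb (x axis), coloured by call. EREG at 0.84 and AREG at -1.15 stand on opposite sides of 0, and BTC at 1.04 was not called.

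Transforming growth factor alpha had the firmest rise. TGFA (chromosome 2, 70447284 to 70553826, - strand) had 1116 and 1102 counts in EGFP negative libraries and 671 and 631 in EGFP positive libraries. This amounts to 92.0 ± 3.38 CPM and 56.4 ± 2.32 CPM (SD, n = 2 each), with no overlap. The log2 fold change was 0.71 ± 0.09 (SE; adjusted p = 1.3e-04), and all 11 alternative fits kept the call, at 0.66 to 0.75. Per length TGFA was at 19.5 and 20.5 CPM per kb in EGFP negative libraries and 12.6 and 11.9 CPM per kb in EGFP positive libraries. The ratio of TGFA to AREG per length was 1.93 and 2.05 in EGFP negative libraries and 0.560 and 0.535 in EGFP positive libraries, so that TGFA exceeded AREG only in EGFP negative libraries. This order rests on the absolute levels and on the exon lengths used.

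EGF itself was scarce. EGF (chromosome 4, 109912883 to 110013766, + strand), outside the cluster of AREG, had 44 and 49 counts in EGFP negative libraries and 10 and 26 in EGFP positive libraries. The means were 3.87 ± 0.470 CPM and 1.56 ± 0.984 CPM (SD, n = 2 each), and the EGFP positive libraries differed from each other more than 2-fold. The log2 fold change was 1.30 ± 0.39 (SE; adjusted p = 0.031). It was 0.77 and not called without EGFP positive library 1, and 2.15 and called (adjusted p = 0.0030) without EGFP positive library 2.

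HBEGF, the most abundant ligand transcript per kb of joined exons, showed no call. In CPM, not corrected for length, NRG1 lay above it in every library. HBEGF (chromosome 5, 140332843 to 140346603, - strand), also known as the cell-surface receptor of diphtheria toxin, had 1100 and 1039 counts in EGFP negative libraries and 1022 and 913 in EGFP positive libraries. Its levels of 88.4 and 89.0 CPM in EGFP negative libraries and 88.4 and 79.2 CPM in EGFP positive libraries overlapped. The log2 fold change was 0.08 ± 0.09 (SE; adjusted p = 0.62; 0.50 to 1.0 over 11 alternative fits).

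NRG1 was slightly lower without passing the test. NRG1 (chromosome 8, 31639222 to 32774046, + strand) had 1348 and 1290 counts in EGFP negative libraries and 1531 and 1409 in EGFP positive libraries, at 109 ± 1.60 CPM and 127 ± 7.17 CPM (SD, n = 2 each). The groups did not overlap, and the log2 fold change was -0.22 ± 0.09 (SE; adjusted p = 0.099). It passed with the replicate number as a block (adjusted p = 0.024), at almost the same fold change. With 1 library left out, the log2 fold change of NRG1 ran from -0.28 to -0.16. NRG1 is the only ligand whose exons overlap those of another gene name, over 189 bases (1.09% of its exonic length), on the same strand. In all, 6 of the 7 ligands had groups that did not overlap, and so did 57.4% of all tested genes.

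**Figure D2:**
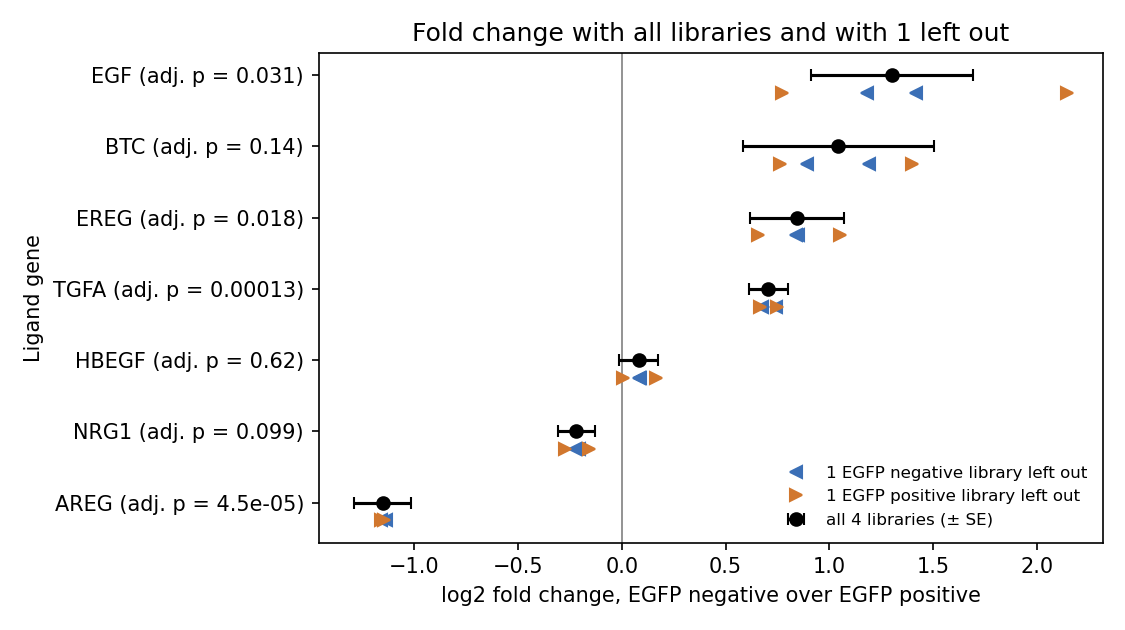
Log2 fold change of EGFP negative over EGFP positive (x axis) of each ligand (y axis, with its adjusted p), as a black point with its SE for all 4 libraries and as triangles with 1 library left out. The triangles of AREG lie together near -1.15, while those of EGF spread over 0.77 to 2.15.

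Per length, the order in EGFP negative cells was HBEGF, TGFA, AREG, NRG1, EREG, BTC and EGF, and in EGFP positive cells HBEGF, AREG, TGFA, NRG1, EREG, BTC and EGF. HBEGF was at 37.6 ± 0.202 CPM per kb in EGFP negative cells and 35.6 ± 2.75 CPM per kb in EGFP positive cells (SD, n = 2 each). AREG was at 10.0 and 22.4, NRG1 at 6.29 and 7.33, EREG at 1.75 and 0.977, BTC at 0.612 and 0.294, and EGF at 0.605 and 0.244 CPM per kb, EGFP negative cells first. Within each group the libraries of neighbouring ligands did not overlap, except those of BTC and EGF, which overlapped in both groups. The length used was that of all annotated exons joined, 17385 bases for NRG1 and 1234 for AREG, which understates genes with many alternative exons such as NRG1. Averaged over the libraries, HBEGF exceeded 85.9% of all tested genes per length, AREG 71.0%, TGFA 70.9%, NRG1 50.9%, EREG 19.5%, BTC 6.65% and EGF 6.12%.

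**Figure D3:**
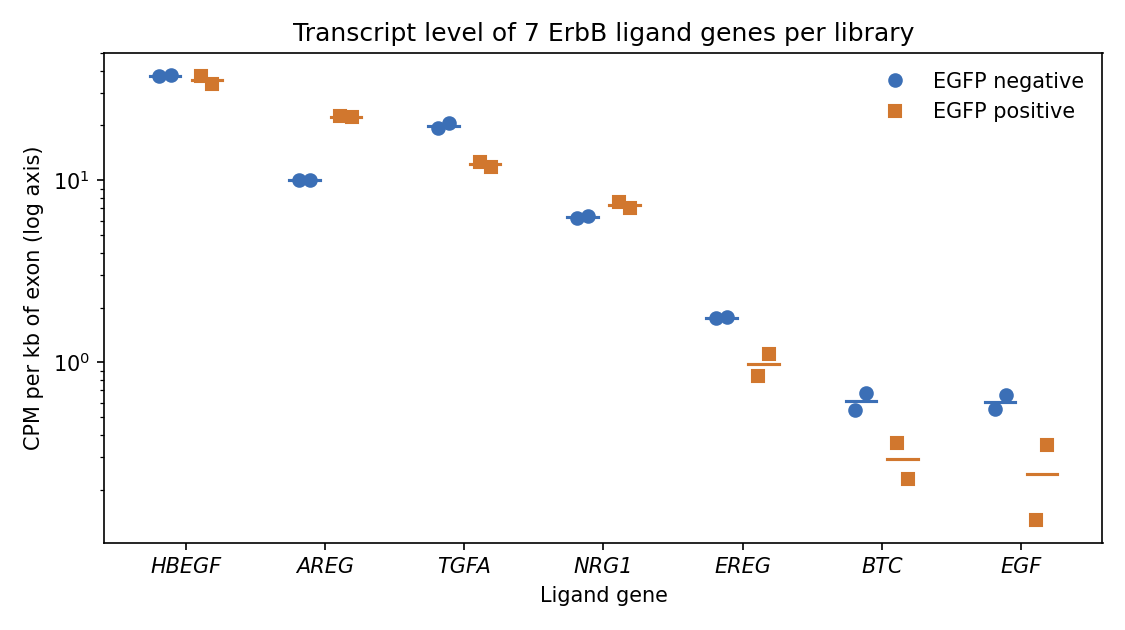
CPM per kb of exon (y axis, log scale) of each ligand gene (x axis) in the 4 libraries, with EGFP negative as circles left of EGFP positive as squares and a bar at each mean (n = 2). HBEGF lies highest with overlapping groups, AREG is lower and TGFA higher in EGFP negative libraries, and BTC and EGF are lowest.

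Summed per length, the 7 ligands came to 76.1 and 77.7 CPM per kb in EGFP negative libraries and 81.6 and 76.5 in EGFP positive libraries, and the groups overlapped. AREG and TGFA took different places in that sum, which rests on the same absolute levels and exon lengths. AREG gave 13.3 and 12.9% of it in EGFP negative libraries and 27.6 and 29.1% in EGFP positive libraries. TGFA gave 25.6 and 26.4% in EGFP negative libraries, against 15.5 and 15.6% in EGFP positive libraries. HBEGF was the largest share in every library, at 49.2 and 48.6% in EGFP negative and 45.97 and 43.96% in EGFP positive libraries. NRG1 held 8.18 to 9.34%, and EREG, BTC and EGF together the small remainder. With 2 libraries against 2 an exact permutation test of such a share cannot go below p = 0.33 (two-sided), so the shares are given without a test.

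**Figure D4:**
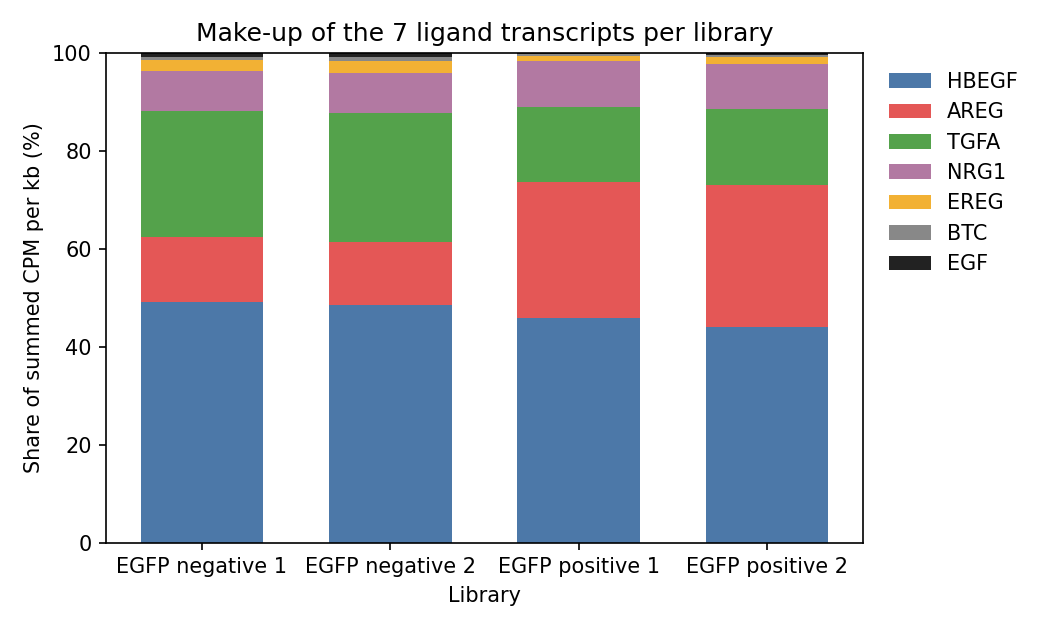
Share of the summed CPM per kb of the 7 ligands in percent (y axis) in each library (x axis), stacked by gene. The AREG band is near 13% in EGFP negative libraries and 28% in EGFP positive libraries, and the TGFA band near 26% and 16%.

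The receptor EGFR was lower in EGFP negative cells, at 482 and 476 CPM against 594 and 608 CPM in EGFP positive cells. Its log2 fold change was -0.33 ± 0.07 (SE; adjusted p = 0.0059). That call was lost without EGFP positive library 1 (0.13) or library 2 (0.21). Summed ligands per length amounted to 182 and 189% of EGFR in EGFP negative libraries and 159 and 145% in EGFP positive libraries. TGFA alone amounted to 46.7 and 49.7% against 24.5 and 22.6%. The sum includes NRG1, which does not bind EGFR. Whether ligand transcripts exceed those of EGFR rests on the exon lengths used and cannot be read from these percentages. ERBB2, the coreceptor without a ligand of its own, and ERBB3 did not pass, with log2 fold changes of 0.26 (adjusted p = 0.057) and 0.52 (0.075). ERBB4 had 0 to 3 counts per library. Of the other ErbB ligand genes, NRG2 was at 1.81 CPM in EGFP negative cells and 1.43 CPM in EGFP positive cells (adjusted p = 0.62), NRG4 had 0 to 3 counts per library and NRG3 had none.

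Among genes that release the ligands, 3 of 10 tested sheddases, iRhoms and their regulators were higher and 0 lower, with a median log2 fold change of 0.16. Of all tested genes 9.40% were higher and 9.46% lower. ADAM19, a metalloprotease gene whose product processes neuregulin in mouse cells, was at 162 and 141 CPM in EGFP negative libraries and 87.8 and 92.5 CPM in EGFP positive libraries (log2 fold change 0.75 ± 0.09, SE, adjusted p = 7.2e-05). RHBDF1, which encodes iRhom1, a carrier of ADAM17 to the cell surface, and ADAM15 also rose, by 0.54 (adjusted p = 0.016) and 0.31 (0.027). With 1 library left out, RHBDF1 ran from 0.29 to 0.76 and ADAM15 from 0.18 to 0.42. The principal sheddases did not pass, ADAM17 at 0.32 (adjusted p = 0.058) and ADAM10 at 0.05 (0.80). Of 4 tested partners of the precursors 1 was higher and 1 lower, with 18.9% of all genes called in either direction. CD9, the tetraspanin that binds the HB-EGF precursor, was at 158 and 160 CPM in EGFP negative libraries and 101 and 99.6 CPM in EGFP positive libraries (0.66 ± 0.08, SE, adjusted p = 7.9e-05). CD44, a proteoglycan that can hold HB-EGF at the surface, fell by 0.43 on the log2 scale (adjusted p = 8.3e-04).

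Downstream of the receptors, 1 of 19 adaptors and transducers was higher and 2 were lower (median -0.02), 15.8% called, near the 18.9% of all genes: MAPK3, encoding the kinase ERK1, rose by 0.38 (adjusted p = 0.040), while the phosphatase gene PTPN11 fell by 0.43 (0.0013) and CBL, the ubiquitin ligase of EGFR, by 0.45 (0.0025). MAPK3 lost its call by DESeq2 (0.11) and with no filter on low counts (0.088). With 1 library left out, MAPK3 ran from 0.25 to 0.50, PTPN11 from -0.46 to -0.39 and CBL from -0.52 to -0.38. Of 15 feedback inhibitors 5 were higher and 4 lower (median -0.0087), 60% called against 18.9% of all genes, of which about as many were higher as lower. SPRY4, a Sprouty inhibitor of MAP kinase signalling, was at 209 and 202 CPM in EGFP negative libraries and 129 and 123 CPM in EGFP positive libraries (0.71 ± 0.08, SE, adjusted p = 4.0e-05). The MAP kinase phosphatase gene DUSP4 rose by 0.57 (adjusted p = 9.4e-05) and ERRFI1, encoding the EGFR inhibitor MIG6, by 0.49 (5.9e-04). DUSP1, an immediate early phosphatase gene, went the other way, at 32.7 and 24.3 CPM in EGFP negative libraries and 66.5 and 69.3 CPM in EGFP positive libraries (-1.25 ± 0.13, SE, adjusted p = 1.2e-05).

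Of 18 tested genes that respond to EGF 4 were higher and 4 lower (median -0.06), 44.4% called against 18.9% of all genes, whose calls also split evenly. The AP-1 subunit gene FOSL1 rose by 0.56 on the log2 scale (adjusted p = 1.9e-04) and VGF by 1.65 (0.0073). SPHK1, encoding a sphingosine kinase, fell by 1.04 (adjusted p = 3.0e-04) and CCND1, encoding cyclin D1, by 0.36 (0.0032). With 1 library left out, CCND1 ran from -0.42 to -0.29. Among 12 regulators known to act on transcription or decay of ligand or related transcripts, 4 were higher and 2 lower (median -0.05), 50% called against 18.9% of all genes. WWTR1, encoding the YAP relative TAZ, was at 173 and 188 CPM in EGFP negative libraries and 98.1 and 98.8 CPM in EGFP positive libraries (0.87 ± 0.09, SE, adjusted p = 8.0e-06). YAP1 rose by 0.39 (adjusted p = 0.0034), ZFP36L1 by 0.49 (0.0011) and SP1 by 0.42 (0.0037). With 1 library left out, YAP1 ran from 0.35 to 0.43 and SP1 from 0.37 to 0.48.

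Over all lists of partner genes, 82 of 89 were tested and 18 were higher and 14 lower, 39.0% against the 18.9% of all tested genes, with a median log2 fold change of -0.01. The lists were chosen with earlier results of these data known, so this share is not a test.

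**Figure D5:**
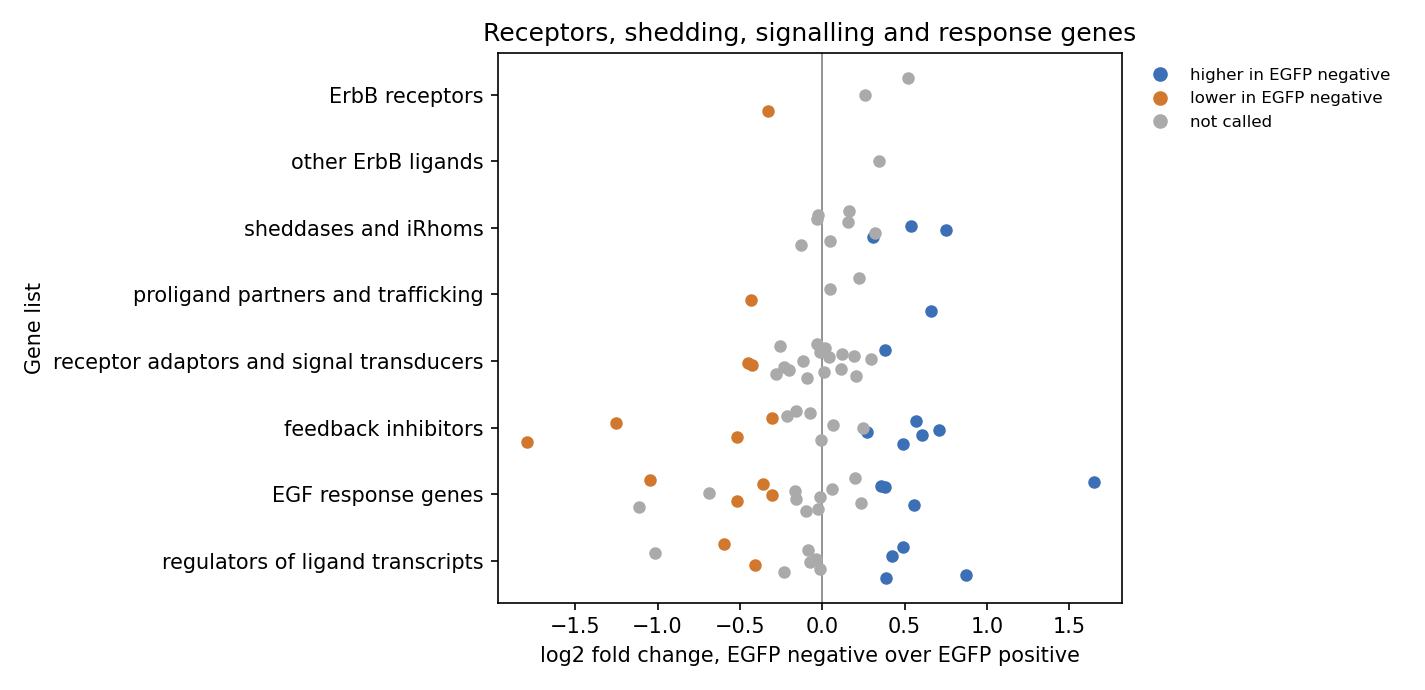
Log2 fold change of EGFP negative over EGFP positive (x axis) of each tested partner gene, a point each, by gene list (y axis), coloured by call. In most lists with calls, called genes lie on both sides of 0, while sheddases and iRhoms hold calls only above 0 and ErbB receptors only below.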

How the data were processed

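Each library had a table of raw fragment counts deposited by the authors. Per the file headers, featureCounts 2.0.1 took paired reads and the exons of each gene name from the basic set of GENCODE 46, with no strand option, so reads of overlapping genes on opposite strands could not be told apart. PolyA selection and stranded libraries are per the labels' protocols. The submitters' processing notes name Subread and the builds GRCh37 and hg19, while the tables carry GRCh38 coordinates: 17596 of 18734 matched protein-coding genes (93.9%) start within 5000 bp of their place in GENCODE 29. The build used for alignment cannot be read from that match. Counts are assigned by position, and reads placed by GRCh37 would mostly miss exons placed by GRCh38. On those exons VIM had 48170 to 74960 counts per library, EGFR 5560 to 7006, and CDH5 and DCN 0. The build used for alignment was not tested, and the aligner is not given in the sources used here.

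Genes were kept by filterByExpr (minimum count 10, minimum total 15). The main test was edgeR 4.0.16 in R 4.3.3, with its quasi-likelihood fit on the 4 libraries, group alone in the design, TMM factors of 0.987 to 1.01 and Benjamini-Hochberg adjustment at 0.05. CPM used TMM-scaled library sizes, and CPM per kb the exon lengths in the tables. The standard error was the log2 fold change over the square root of F. Replicates differed beyond sampling noise (chi-square per degree of freedom 6.71 in EGFP negative and 2.14 in EGFP positive libraries). The code was tested on simulated counts. Alternatives were RLE and upper quartile scaling, no filter, a stricter filter (1 CPM in 2 libraries and a total of 100), DESeq2 1.42.0, limma-voom (limma 3.58.1), the replicate number as a block and each library left out with the tested genes kept. All ligands were named, with up to 4 called partner genes per list by adjusted p, or the 2 most abundant where none was called. ERBB2, ERBB3, ERBB4, NRG3, ADAM10 and ADAM17 were named outside that rule. The members and lists were chosen with earlier results of these data known. Promoter windows are RefSeq's.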

Additional observations from a re-analysis of the deposited data

How the results depend on the processing

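AREG and TGFA kept direction and call in all 11 alternative fits, and HBEGF and BTC stayed uncalled; BTC had no value under the stricter filter, which removed it. With 1 library left out, log2 fold changes ran from 0.66 to 1.05 for EREG, 0.77 to 2.15 for EGF and -0.28 to -0.16 for NRG1. By DESeq2 EREG was at 0.85 and EGF at 1.31, both uncalled, so that 1 ligand was called higher. With 1 library left out, 1 to 3 ligands were higher and 1 to 2 lower, 11 to 24 partner genes higher and 5 to 22 lower, and 720 to 2477 of all genes higher and 715 to 2465 lower. DESeq2 called 997 of all genes lower. Libraries with the same number deviated from their group means with a correlation of 0.114 across genes, and nothing in the labels makes the numbers pair the libraries. With the replicate number as a block NRG1 passed at -0.22, so that 2 ligands were lower, and 2407 of all genes were lower. For the 22 named partner genes, 0 of 241 refits reversed direction. The refits reuse the same libraries, and most of these genes were named for passing the test, so this says little about stability. No scaling moved the median of all genes by more than 0.015 on the log2 scale. Counts of 7 to 49 limit what can be said of BTC and EGF.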

Other observations

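Further members of the feedback and response lists passed the test, outside the rule for named genes and given here after their values were seen. Among feedback inhibitors SPRY1 rose by 0.61 on the log2 scale (adjusted p = 7.4e-04) and SPRY2 by 0.27 (0.039), while LRIG1 fell by 1.80 (0.0055), LRIG3 by 0.52 (0.042) and DUSP5 by 0.31 (0.035). LRIG1, a membrane protein that promotes loss of EGFR, was at 0.827 CPM in EGFP negative cells and 2.90 CPM in EGFP positive cells. Among response genes the ETS factor genes ETV4 and ETV5 rose by 0.38 (adjusted p = 0.018) and 0.36 (0.011), and JUNB and MYC fell by 0.51 (0.0085) and 0.30 (0.019). Among regulators TEAD3 fell by 0.41 (adjusted p = 0.013) and ZFP36L2, which encodes a protein that speeds mRNA decay, by 0.60 (0.0051), against the rise of its relative ZFP36L1. The adjusted p-values are from edgeR's quasi-likelihood test with 2 libraries a group.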
